A study of Homo sapiens with 28 samples.

Results

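The effect of HOXB13 knockdown (KD) was measured in LNCaP prostate cancer cells in which p300 was also depleted. The comparison set the 2 libraries with the treatment label shHOXB13+shp300 against the 2 libraries labelled shCtrl+shp300, 4 of the 28 RNA-seq libraries of the series, and used all genes listed in them. LNCaP is an established, androgen-responsive line that was grown from a lymph node metastasis of prostate cancer, and every library was labelled WT for genotype. Both groups carried the hairpin against EP300, the gene for p300, in a pLKO.1 lentiviral vector. They differed in a second lentivirus (pGIPZ), which expressed either 1 hairpin against HOXB13 or the control insert, so an effect of the HOXB13 sequence other than on HOXB13 cannot be told apart from the loss of HOXB13. Neither group received a drug, and the labels gave no time after infection. PolyA RNA was sequenced, and replicates are biological duplicates per the methods. Expression was deposited as FPKM, in which a gene's reads are scaled by its length and by the mapped reads of the library. For comparison, the same contrast was read in cells without a second hairpin (shHOXB13 against shCtrl). It was also read in cells with a hairpin against CREBBP (shCBP), the gene for the related acetyltransferase CBP, and in separate DMSO-treated cells with 3 libraries per group. The labels name no control vector for shp300 in the groups without it. Between cells with and without shp300, other effects of its sequence or of a further lentivirus therefore cannot be told apart from p300 depletion.

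HOXB13 is a homeobox transcription factor of the adult prostate that can recruit the HDAC3-NCoR corepressor. p300 and CBP acetylate histone H3 at lysine 27 on active enhancers and serve as coactivators for many transcription factors, NF-kB, p53 and IRF3 among them. Interferons are secreted ligands. Type I (IFNB1) and type III (IFNL1, IFNL2, IFNL3) interferons are transcribed when cytoplasmic sensors such as RIG-I (DDX58) and MDA5 (IFIH1) detect foreign or misplaced RNA, and they act through a complex of STAT proteins and IRF9, which binds a promoter motif called the interferon-stimulated response element (ISRE).

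Of the 88 genes whose change on HOXB13 KD was higher with shp300 than without, 19 belonged to the list of interferon-stimulated genes, so the promoters of 3 of these and of the ligand gene *IFNL1* are shown. Each is the RefSeq sequence on GRCh38.p14 of 250 bases before the gene start and 50 after it, read 5′ to 3′ on the gene's strand, with matches to the ISRE core GAAANNGAAA on either strand in capitals. The IFNL1 window is chr19:39296157-39296456 (+ strand) with overlapping minus-strand matches 214 and 208 bases before the start. The IFIT3 window is chr10:89327747-89328046 (+ strand) with minus-strand matches 156 and 122 bases before the start. The IFITM1 window is chr11:313790-314089 (+ strand) with matches 40 and 6 bases before the start. The BST2 window is chr19:17405581-17405880 (− strand) with overlapping matches 130 and 124 bases before the start.
IFNL1: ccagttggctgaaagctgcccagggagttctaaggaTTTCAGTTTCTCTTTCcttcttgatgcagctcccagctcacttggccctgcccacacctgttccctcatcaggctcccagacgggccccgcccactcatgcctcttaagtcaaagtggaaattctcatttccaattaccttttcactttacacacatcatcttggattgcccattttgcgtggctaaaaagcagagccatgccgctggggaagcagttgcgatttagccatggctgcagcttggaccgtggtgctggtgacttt
IFIT3: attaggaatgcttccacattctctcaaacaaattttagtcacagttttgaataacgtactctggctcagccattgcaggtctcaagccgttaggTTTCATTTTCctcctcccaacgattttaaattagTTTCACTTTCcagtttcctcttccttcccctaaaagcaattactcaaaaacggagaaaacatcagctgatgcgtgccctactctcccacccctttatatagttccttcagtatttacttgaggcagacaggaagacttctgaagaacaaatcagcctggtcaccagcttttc
IFITM1: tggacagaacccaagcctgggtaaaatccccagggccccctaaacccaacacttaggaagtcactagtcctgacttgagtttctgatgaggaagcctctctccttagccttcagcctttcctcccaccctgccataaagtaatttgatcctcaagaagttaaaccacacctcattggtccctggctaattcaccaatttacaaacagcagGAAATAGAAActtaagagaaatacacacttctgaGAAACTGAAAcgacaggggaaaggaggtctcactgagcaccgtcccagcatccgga
BST2: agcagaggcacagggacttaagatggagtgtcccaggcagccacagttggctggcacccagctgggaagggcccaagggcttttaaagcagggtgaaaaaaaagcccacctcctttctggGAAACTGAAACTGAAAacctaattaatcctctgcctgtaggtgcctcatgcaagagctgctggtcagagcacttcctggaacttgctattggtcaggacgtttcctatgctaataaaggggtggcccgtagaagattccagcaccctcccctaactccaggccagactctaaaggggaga

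This motif was found in 996 of 27305 promoter windows (3.65%) and in 352 of the 11971 tested genes that have a window (2.94%). It was found in 64 of 1136 genes that rose on HOXB13 KD with shp300 (5.63%) and in 90 of 3581 that fell (2.51%). Among genes whose response to HOXB13 KD was higher with shp300 than without, 19 of 62 held it (30.6%). These genes share members with the interferon response list, and the share outside that list was not computed. Among genes whose response was lower, 0 of 43 held it, which are few windows for a motif found in 2.94% of tested genes. In the interferon response list 20 of 31 tested genes with a window held it (64.5%). The windows of *RSAD2*, *OAS1*, *IRF9* and *STAT2*, which rose, had no match, and that of *MX1*, which fell, had 1. A match is a description of the letters in this window and not a bound site.

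The targeted transcripts were examined first. *HOXB13* (17:48724763-48728750, minus strand, GRCh38) was 69.7 and 77.1 FPKM in the shCtrl+shp300 libraries and 12.1 and 11.4 FPKM in the shHOXB13+shp300 libraries (log2 fold change −2.63, SE 0.17, limma adjusted p = 7.54e-07). *EP300* (22:41092592-41180077, plus strand) was 11.5 and 10.5 FPKM in shCtrl cells and 4.34 and 4.87 FPKM in shCtrl+shp300 cells, so in control cells the hairpin lowered its target by 1.24 on the log2 scale (a log2 change of −1.24). HOXB13 KD without shp300 also lowered *EP300*, to 5.62 and 5.88 FPKM (log2 −0.92, limma adjusted p = 0.000671), beside a median of −0.33 for all tested genes. Between HOXB13 KD cells with and without shp300, its log2 change was −0.79. With both hairpins it was 3.16 and 3.39 FPKM, below the shCtrl+shp300 libraries by a log2 change of −0.48 (limma adjusted p = 0.0266), which is less than the 1.5-fold required for a call. After median-of-ratios scaling, which sets the median change of all genes to 0, the difference was −0.11 (limma adjusted p = 0.669), so the inequality in *EP300* transcript between the groups compared depended on the scaling. Residual *EP300* remained in both. *CREBBP* was 8.63 and 8.92 FPKM in shCtrl+shp300 and 5.69 and 6.66 FPKM in shHOXB13+shp300 cells (log2 −0.50), likewise under 1.5-fold, and the change was −0.13 after median-of-ratios scaling (limma adjusted p = 0.627).

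The 4 libraries held 8165560 to 10801468 mapped reads, of which 58.7% to 71.6% lay in genes, and both shHOXB13+shp300 libraries were shallower and had smaller gene shares than both shCtrl+shp300 libraries, and the part of depth in the results was not tested. The replicates correlated at 0.9758 and 0.9687 (Pearson r of log2 FPKM over 17678 genes, as a description). A gene was called higher or lower at an adjusted p under 0.05 and at least 1.5-fold in a limma fit of log2(FPKM + 0.1), a scale that understates the change of weakly expressed genes. On HOXB13 KD in p300-depleted cells, 1671 of 17678 tested genes rose (9.45% of those tested) and 4774 fell (27.0%). The median of all tested genes moved by −0.30 on the log2 scale. After median-of-ratios scaling 2807 genes rose and 2413 fell, so 53.8% of calls were rises against 25.9% on the deposited scale. Scaling to equal summed FPKM gave 2258 rises and 3286 falls. Changes of named genes below are on the deposited scale and can be read against the shift of −0.30, and counts of list members against the 9.45% and 27.0% of all tested genes that rose and fell. In bulk RNA a smaller share of cells of 1 kind and less RNA per cell cannot be told apart.

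**Figure D1:**
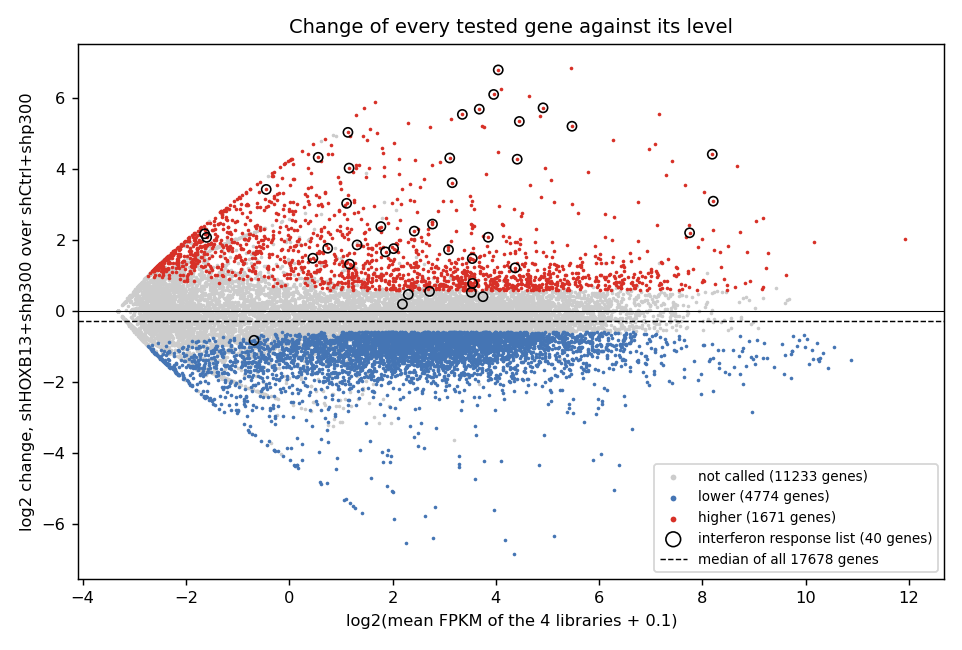
Log2 fold change of every tested gene on HOXB13 KD with shp300 (vertical axis) against its mean log2 expression (horizontal axis), with called genes coloured and the 40 interferon response genes ringed. Falls (4774) outnumber rises (1671) and the median of all genes lies at −0.30.

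The interferon response list rose. Of its 40 tested members, 34 rose and 1 fell on HOXB13 KD with shp300, with a median log2 fold change of 2.23 against −0.30 for all tested genes. With HOXB13 KD alone 15 members rose and 4 fell (median 0.52), and with shCBP 20 rose and 1 fell (median 0.63). In the DMSO-treated cells, where 38 members were tested, 14 rose and 7 fell.

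The interferon ligands went from undetected to detected. *IFNL1* (19:39296407-39298673, plus strand), a type III interferon, was listed at 0 FPKM with 0 reads in both shCtrl+shp300 libraries and at 5.01 and 5.42 FPKM, from 35 and 42 reads, in the shHOXB13+shp300 libraries. The gene was near the detection limit with HOXB13 KD alone (0.280 and 0.245 FPKM, 3 and 2 reads) and with HOXB13 and CBP KD (0.626 and 0.881 FPKM, 4 and 6 reads). The neighbouring *IFNL2* and *IFNL3*, close copies between which reads can be misassigned, were also at 0 reads in shCtrl+shp300 cells and reached 0.834 and 0.753 FPKM (*IFNL2*, 5 and 5 reads) and 1.44 and 1.67 FPKM (*IFNL3*, 7 and 9 reads) with both hairpins. *IFNB1*, a type I interferon, had 0 reads in both control libraries and 2 and 7 reads in the double KD libraries, too few for a firm level (limma adjusted p = 0.0452, lost when single libraries were left out).

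The RNA sensors that induce these ligands rose as well. *DDX58*, which encodes RIG-I, went from 2.14 and 1.87 FPKM to 12.7 and 10.2 FPKM (log2 2.45, SE 0.20, limma adjusted p = 4.17e-06). *IFIH1*, which encodes MDA5, went from 1.77 and 1.73 FPKM to 9.53 and 7.98 FPKM (log2 2.25, SE 0.16). Neither was called on HOXB13 KD alone, where their log2 changes were 0.34 and 0.54.

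Transcription factors downstream of the interferon receptors were among the members that rose. *IRF9*, the subunit of that complex that recognises DNA, went from 5.73 and 5.13 FPKM to 22.9 and 23.6 FPKM (log2 2.08). *IRF7*, which amplifies interferon transcription, went from 5.30 and 6.88 FPKM to 17.9 and 16.2 FPKM (log2 1.48). *STAT2* rose by a log2 change of 0.78 (7.83 and 9.25 FPKM to 15.1 and 14.2 FPKM).

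The 5 largest fold changes of the list were those of *IFITM1*, *IFI27*, *RSAD2*, *IFIT3* and *BST2*. *IFITM1*, a membrane protein that blocks viral entry, was 0.129 and 0.276 FPKM in shCtrl+shp300 cells and 30.6 and 34.7 FPKM in shHOXB13+shp300 cells (log2 6.80, SE 0.63, limma adjusted p = 1.21e-05), although reads can be shared with its close relatives *IFITM2* and *IFITM3*. *IFI27* went from 0.280 and 0.419 FPKM to 32.5 and 28.5 FPKM (log2 6.11, SE 0.31). *RSAD2*, which encodes viperin, went from 1.85 and 0.536 FPKM to 60.7 and 57.0 FPKM (log2 5.73, SE 0.44). In each of these the control and KD libraries were far apart. *IFIT3*, which binds viral RNA together with *IFIT1*, went from 0.522 and 0.279 FPKM to 23.5 and 26.5 FPKM (log2 5.69, SE 0.40). *BST2*, which encodes tetherin, went from 0.273 and 0.389 FPKM to 21.6 and 18.1 FPKM (log2 5.54, SE 0.41). *OAS2*, a synthetase of the RNase L pathway, went from 0.045 and 0.016 FPKM to 4.37 and 3.96 FPKM (log2 5.04, SE 0.35).

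Further members of the list covered a wide range of control levels. *ISG15*, a ubiquitin-like modifier, went from 59.8 and 64.1 FPKM to 547 and 513 FPKM (log2 3.10, SE 0.21). *IFI6* went from 27.0 and 24.99 FPKM to 564 and 552 FPKM (log2 4.42, SE 0.25). *CXCL10*, a T cell attracting chemokine, went from 0.152 and 0.163 FPKM to 4.03 and 4.18 FPKM (log2 4.03). The member called lower was *MX1*, a dynamin-like antiviral GTPase that fell from 0.708 and 0.677 FPKM to 0.435 and 0.272 FPKM (log2 −0.83, limma adjusted p = 0.0284). That call was lost under median-of-ratios scaling, with only the compared groups in the fit, and in some fits with a library left out. Another 5 members were not called. One of them, *USP18*, a feedback inhibitor of interferon signalling, was 4.09 and 4.23 FPKM against 4.81 and 4.73 FPKM (log2 0.19, limma adjusted p = 0.484).

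Class I antigen presentation genes, which interferon and NF-kB both induce, were looked up after their values were seen. *HLA-B* (6:31353872-31367067, minus strand) went from 19.0 and 17.3 FPKM to 131 and 110 FPKM (log2 2.72, SE 0.26, limma adjusted p = 1.46e-05). *HLA-C* changed by 2.07 and *HLA-E* by 2.16 on the log2 scale. Reads can be shared among HLA genes. Their activator *NLRC5* went from 0.523 and 0.353 FPKM to 9.43 and 10.8 FPKM (log2 4.26), and *B2M*, the invariant light chain, went from 111 and 90.3 FPKM to 542 and 439 FPKM (log2 2.28). *B2M* stood on the list of reference genes, of which 2 of 14 rose and 4 fell (4 became 1 after median-of-ratios scaling).

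The interferon response was compared with the other knockdown groups. The median log2(FPKM + 0.1) of the 40 members was 0.681 and 0.577 in the shCtrl+shp300 libraries and 3.70 and 3.44 in the shHOXB13+shp300 libraries. It was 0.317 and 0.292 in shCtrl cells, and 1.58 and 1.55 with shHOXB13 alone. In shHOXB13+shCBP cells it was 1.56 and 1.86. Both shCtrl+shp300 libraries thus lay above both shCtrl libraries, by less than the shHOXB13 libraries did, while 0 of 40 members were called higher and 1 lower for shCtrl+shp300 against shCtrl cells. With hairpins against both p300 and CBP the control cells reached 1.90 and 2.45 and the HOXB13 KD cells 3.04 and 2.76, so there the 2 arms lay closer together.

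**Figure D2:**
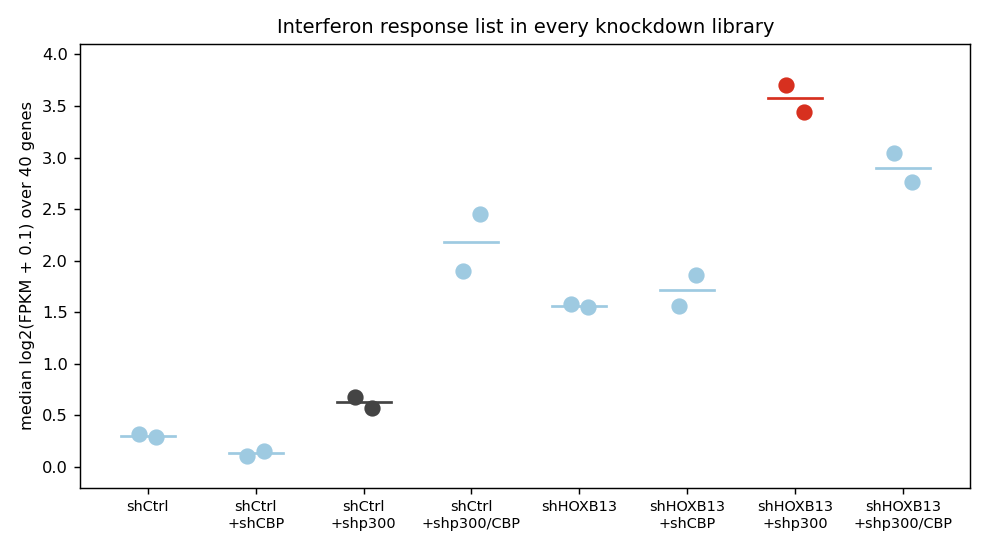
Median log2(FPKM + 0.1) of the 40 interferon response genes in each of the 16 knockdown libraries, with a point per library and a line at the group mean. The shHOXB13+shp300 libraries, at 3.70 and 3.44, are the highest, and the shCtrl+shp300 libraries lie at 0.681 and 0.577.

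The difference itself was tested as an interaction. Over all genes, the change on HOXB13 KD was higher with shp300 than without for 88 of 17678 genes (0.498%) and lower for 63 (0.356%), while 2421 genes had an unadjusted p under 0.05. Of the 40 interferon genes, 19 had a higher change with shp300 and 0 a lower one (median difference 1.78 on the log2 scale). The difference was 5.10 for *IFITM1* (SE 0.89, limma adjusted p = 0.0211), 3.98 for *BST2* (SE 0.59, limma adjusted p = 0.0106) and 3.64 for *OAS2* (SE 0.49, limma adjusted p = 0.00789). *IFIH1* and *DDX58* differed by 1.71 and 2.11. For *RSAD2* and *IFIT1* the differences of 2.72 and 2.17 were not called (limma adjusted p = 0.0712 and 0.0716). With only the compared groups in the fit the 19 became 12. The count of 19 depended on every library: it fell to 5 without shHOXB13 replicate 2, 6 without shCtrl replicate 2, 8 without shCtrl+shp300 replicate 1, and 11 to 13 without each of the others. Compared with the change in CBP-depleted cells, 201 genes were higher with shp300 (1.14%) and 87 lower (0.492%). Of the 40 interferon genes, 17 were among the higher and 0 among the lower (median difference 1.70). With only the compared groups in the fit the 201 and 87 became 12 and 5, so the 17 were not all called there.

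Most steroid glucuronidation enzymes rose, some of them by less than without shp300. UGT2B enzymes attach glucuronic acid to androgens and inactivate them. Of 10 tested members of this list 7 rose and 1 fell (median 2.17), against 8 and 1 with HOXB13 KD alone (median 3.73). *UGT2B15* (4:68646597-68670652, minus strand) went from 4.73 and 3.16 FPKM to 52.7 and 40.1 FPKM with shp300 (log2 3.54, SE 0.23) and from 1.73 and 1.82 FPKM to 85.5 and 88.1 FPKM without it. Its change was lower by 2.00 with shp300 (SE 0.32, limma adjusted p = 0.0147). The control level with shp300 was higher and the KD level lower than in the cells without it. *UGT2B28* and *UGT2B10* differed by −2.14 and −2.49 and *UGT2B17*, which went from 10.9 and 8.69 FPKM to 34.5 and 28.5 FPKM, by −1.73. *UGT2B11* reached 170 and 128 FPKM from 6.396 and 4.17 FPKM (log2 4.81), and its difference of −1.09 was not called. In all, 5 of the 10 had a lower change with shp300. The count became 1 with only the compared groups in the fit and 3 with no filter on low values. It also dropped whenever any single library was left out. These genes are close copies between which reads can be misassigned.

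Androgen-regulated and luminal genes mostly fell. Of 26 androgen response genes, 4 rose and 16 fell (median −1.11). *SLC45A3*, which encodes prostein, went from 94.8 and 92.8 FPKM to 12.3 and 9.18 FPKM (log2 −3.13). *FOLH1*, which encodes prostate-specific membrane antigen, went from 419 and 364 FPKM to 124 and 103 FPKM (log2 −1.79). *KLK3*, which encodes PSA, went the other way, from 501 and 524 FPKM to 1234 and 882 FPKM (log2 1.03, SE 0.21, limma adjusted p = 0.00248). With HOXB13 KD alone *KLK3* went from 1054 and 1243 FPKM to 3480 and 3363 FPKM (log2 1.58), and the difference of −0.55 was not called (limma adjusted p = 0.466).

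Of the androgen response genes, 5 had a lower change with shp300 than without and 0 a higher one. *FKBP5*, a chaperone of steroid receptors, fell with shp300, from 7.09 and 6.62 FPKM to 3.73 and 2.53 FPKM, and rose without it, from 6.51 and 5.49 FPKM to 10.3 and 10.5 FPKM (difference −1.92, SE 0.29, limma adjusted p = 0.0113). *NCAPD3*, a condensin subunit, was 13.1 and 12.4 FPKM against 11.6 and 9.03 FPKM with shp300, where it was not called. Without shp300 it rose from 7.73 and 7.31 FPKM to 29.8 and 31.8 FPKM (difference −2.33, SE 0.32). *HPGD*, a prostaglandin-degrading enzyme, was 3.24 and 3.01 FPKM against 2.83 and 2.63 FPKM with shp300, also not called, and rose from 1.75 and 1.55 FPKM to 8.74 and 8.43 FPKM without it. *STEAP4*, a metalloreductase, rose in both but to 3.67 and 2.95 FPKM with shp300 against 14.8 and 14.98 FPKM without (difference −2.70). Without shHOXB13 replicate 2 none of the 5 differences was called, and without each of the other libraries up to 4 were.

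**Figure D3:**
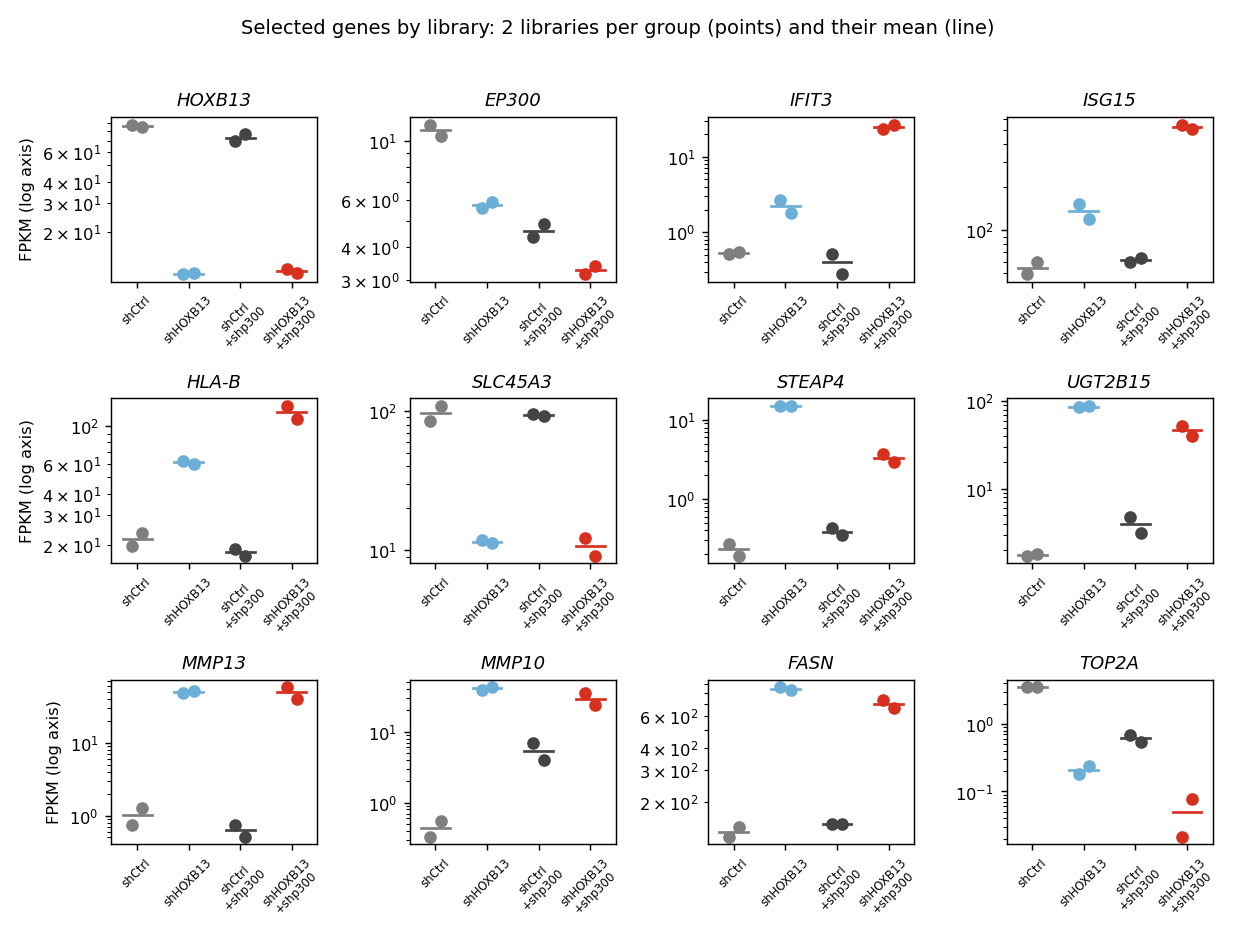
FPKM of selected genes (log axis) in the 8 libraries with and without shp300, with a point per library and a line at the group mean of 2. *UGT2B15* is lower in the shHOXB13+shp300 than in the shHOXB13 libraries, whereas *IFIT3*, *ISG15* and *HLA-B* are higher.

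Genes of prostate secretion and luminal identity were among the largest falls. *SLC30A4*, a zinc transporter, went from 40.6 and 30.8 FPKM to 0.429 and 0.206 FPKM (log2 −6.46, SE 0.45). *TMEFF2* went from 78.6 and 58.9 FPKM to 0.890 and 0.612 FPKM (log2 −6.34, SE 0.34), and *OR51E2*, the prostate-specific olfactory receptor, from 13.4 and 13.7 FPKM to 0.088 and 0.040 FPKM (log2 −6.39, SE 0.38). Its neighbour *OR51E1* changed by −5.86. *ACPP*, which encodes prostatic acid phosphatase, went from 31.1 and 29.8 FPKM to 0.577 and 0.463 FPKM (log2 −5.63, SE 0.24). These genes also fell without shp300, where *OR51E2* changed by −6.07, *TMEFF2* by −6.46 and *ACPP* by −6.52, and none of their differences was called. *RLN1*, which encodes the hormone relaxin, fell further with shp300, from 41.2 and 39.6 FPKM to 0.122 and 0.440 FPKM, than without it, from 13.6 and 18.0 FPKM to 0.637 and 0.628 FPKM (difference −2.44, SE 0.47, limma adjusted p = 0.0369). Its control level was higher with shp300, and its KD level was under 1 FPKM in all 4 KD libraries. The noncoding RNA *PCGEM1* was 4.83 and 5.36 FPKM in control cells and listed at 0 in both KD libraries. *GPC5-AS1* went from 13.9 and 10.1 FPKM to 0 and 0.374 FPKM, and as an antisense gene in data counted without strand it is uncertain. *RNVU1-15*, one of many near-identical U1 copies, was 5.05 and 4.2015 FPKM in control cells and listed at 0 in both KD libraries.

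The largest rise among genes with at least 1 FPKM in a group was that of a digestive protease. *PGC*, which encodes pepsinogen C, went from 0.970 and 0.437 FPKM to 94.8 and 79.7 FPKM (log2 6.84, SE 0.28, limma adjusted p = 5.22e-08). *TM4SF1*, a membrane protein of endothelial and tumour cells, went from 7.17 and 4.63 FPKM to 317 and 240 FPKM (log2 5.56, SE 0.26). Without shp300 *PGC* rose by a like amount (6.74) and *TM4SF1* by 6.55, so its change was lower by 0.99 with shp300 (SE 0.37). Neither difference was called.

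Matrix metalloproteinases, which degrade extracellular matrix, held 7 rises and 1 fall among 17 tested members (median 0.79). The count of rises was 4 without shCtrl+shp300 replicate 2. *MMP13*, a collagenase (11:102942995-102955732, minus strand), went from 0.749 and 0.510 FPKM to 58.0 and 40.4 FPKM (log2 6.07, SE 0.27, limma adjusted p = 5.29e-08). *MMP12*, macrophage elastase (11:102862736-102874982, minus strand), went from 0.641 and 0.158 FPKM to 38.2 and 29.5 FPKM (log2 6.27, SE 0.45). Both changes were close to those without shp300, 5.54 and 6.06. *MMP10*, a stromelysin of the same cluster (11:102770502-102780628, minus strand), went from 6.89 and 3.94 FPKM to 34.9 and 23.6 FPKM with shp300 (log2 2.44) and from 0.329 and 0.543 FPKM to 39.1 and 42.2 FPKM without it (log2 6.28). Its difference was −3.84 (SE 0.38, limma adjusted p = 0.00198), and the p300 hairpin by itself raised *MMP10* in control cells by 3.34. *MMP16*, a membrane-bound member, fell from 14.99 and 12.4 FPKM to 0.174 and 0.227 FPKM (log2 −5.52). *MMP7*, matrilysin, was 0.331 and 0 FPKM against 0.766 and 0.099 FPKM and was not called (log2 1.00, limma adjusted p = 0.33).

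Among EMT regulators and cadherins, 3 of 17 rose and 7 fell, beside 9.45% and 27.0% of all tested genes. The median of −0.37 was close to the −0.30 of all genes, and the 7 falls became 3 after median-of-ratios scaling. *SNAI2*, a repressor of epithelial genes, was low throughout and fell from 0.527 and 0.423 FPKM to 0.116 and 0.157 FPKM (log2 −1.28, limma adjusted p = 0.0267), a call lost under that scaling and in some fits with a library left out. *SNAI1* (log2 0.51), *ZEB1* (0.07), *CDH1* (−0.54) and *VIM* (−0.14) were not called, and *VIM* was higher rather than lower under either rescaling. *FN1*, fibronectin, fell from 36.1 and 30.4 FPKM to 13.7 and 10.8 FPKM (log2 −1.44). *ESRP1*, an epithelial splicing factor, fell from 30.9 and 35.3 FPKM to 13.1 and 11.4 FPKM (log2 −1.43). *OCLN*, a tight junction protein, fell by 1.53 on the log2 scale.

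Lipid synthesis genes rose in part. Fatty acid synthase, *FASN* (17:82078338-82098294, minus strand), went from 151 and 150 FPKM to 736 and 665 FPKM (log2 2.22, SE 0.12, limma adjusted p = 2.93e-07). Without shp300 it went from 128 and 145 FPKM to 864 and 832 FPKM (log2 2.64), and the difference of −0.42 was not called (SE 0.18, limma adjusted p = 0.319). In the de novo fatty acid synthesis list 4 of 11 rose and 2 fell (median 0.52). *SREBF1*, the transcription factor that drives these genes, went from 76.9 and 79.3 FPKM to 374 and 296 FPKM (log2 2.09, SE 0.15). *ACSS2*, which makes acetyl-CoA from acetate, rose by 0.95. *THRSP* went from 0.471 and 0.168 FPKM to 2.08 and 2.06 FPKM (log2 2.47).

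Of 17 genes of fatty acid elongation and desaturation 6 rose and 5 fell. *SCD*, stearoyl-CoA desaturase, went from 182 and 140 FPKM to 1079 and 914 FPKM (log2 2.64, SE 0.20), and *FADS2* from 107 and 93.9 FPKM to 407 and 403 FPKM (log2 2.02, SE 0.15). The change of *SCD* without shp300 was 3.87 and the difference of −1.23 was not called (SE 0.28, limma adjusted p = 0.0737). *ELOVL7* fell from 25.6 and 17.9 FPKM to 5.50 and 4.13 FPKM (log2 −2.14), and *HACD2*, a dehydratase of the elongation cycle, fell by 2.80 on the log2 scale. *ELOVL5*, an elongase of polyunsaturated fatty acids, fell from 187 and 164 FPKM to 79.9 and 57.5 FPKM with shp300, while it was 227 and 210 FPKM against 195 and 198 FPKM without it (difference −1.22, SE 0.23, limma adjusted p = 0.0321).

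In the list of fatty acid activation and uptake 5 of 11 tested genes rose and 0 fell. *ACSL3*, the lipid droplet acyl-CoA synthetase, went from 84.6 and 67.7 FPKM to 164 and 136 FPKM with shp300 (log2 0.98) and from 55.8 and 52.0 FPKM to 290 and 273 FPKM without it (difference −1.40, SE 0.24, limma adjusted p = 0.0187). For *ACSL1* the difference of −1.04 was not called (limma adjusted p = 0.0596). In the triglyceride and lipid droplet list 5 of 17 rose and 4 fell. *LPIN1* rose from 10.7 and 9.18 FPKM to 33.5 and 33.3 FPKM, and *GPAM*, the first acyltransferase of glycerolipid synthesis, fell from 5.26 and 4.87 FPKM to 1.38 and 1.19 FPKM. Of 21 fatty acid oxidation genes 2 rose and 2 fell. Of 43 genes of acyl-CoA metabolism that the study had chosen on its own data, which are no independent evidence of direction, 11 rose and 8 fell. Of these 43, 3 had a lower change with shp300 than without, *ACSL3* and *ELOVL5* among them, and 0 a higher one. The shares of all tested genes were 0.356% and 0.498%.

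In the early, pre-squalene list of cholesterol synthesis 5 of 10 genes rose and 2 fell (median 0.42), and in the sterol branch 6 of 11 rose and 0 fell (median 0.69), beside 9.45% of all tested genes that rose and 27.0% that fell. The 6 became 3 with only the compared groups in the fit. *HMGCS1*, which makes HMG-CoA, went from 4.86 and 5.02 FPKM to 22.4 and 21.2 FPKM (log2 2.12, SE 0.17, limma adjusted p = 3.37e-06). *FDFT1*, squalene synthase, went from 43.8 and 42.8 FPKM to 191 and 153 FPKM (log2 1.98), and *TM7SF2*, a sterol reductase, from 228 and 214 FPKM to 790 and 630 FPKM (log2 1.68). None of the 21 genes had a called difference from the change without shp300. In the list of sterol sensing and uptake 5 of 13 rose and 1 fell. *INSIG1*, which retains the SREBP precursors in the endoplasmic reticulum, went from 37.8 and 26.6 FPKM to 103 and 90.1 FPKM (log2 1.595). *ABCG1*, a sterol exporter and target of the liver X receptors, went from 2.93 and 3.35 FPKM to 17.2 and 13.7 FPKM (log2 2.26). *NPC1*, which moves cholesterol out of lysosomes, went from 24.9 and 17.9 FPKM to 155 and 113 FPKM (log2 2.64), and the lysosome list held 10 rises and 1 fall among 28.

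Of 28 mitotic genes 0 rose and 14 fell (median −0.94), beside 27.0% of all tested genes that fell. The count was 8, a share close to that of all genes, without shCtrl+shp300 replicate 2 or without shHOXB13+shp300 replicate 2. It was also 8 with a pseudocount of 1 FPKM or after median-of-ratios scaling, and 9 with only the compared groups in the fit. With HOXB13 KD alone all 28 fell (median −2.93). The p300 hairpin by itself lowered 18 of the 28 in control cells (median −1.81). The median log2(FPKM + 0.1) of the list was 1.75 and 1.67 in shCtrl cells, −0.133 and −0.030 in shCtrl+shp300 cells, −1.61 and −1.45 in shHOXB13 cells, and −1.27 and −1.299 in shHOXB13+shp300 cells. The KD levels were thus close with and without shp300, and the control levels were not. *TOP2A*, topoisomerase II alpha, went from 0.692 and 0.534 FPKM to 0.021 and 0.077 FPKM (log2 −2.27, SE 0.34). *BUB1B*, a spindle checkpoint kinase, went from 1.24 and 1.03 FPKM to 0.393 and 0.354 FPKM with shp300 and from 3.41 and 2.63 FPKM to 0.149 and 0.112 FPKM without it (difference 2.37, SE 0.40, limma adjusted p = 0.02). *PLK1* was 1.33 and 1.16 FPKM against 0.825 and 0.893 FPKM with shp300, which was not called, and its difference was 2.23. *KIF2C* (2.02), *CDC20* (3.03) and *NDC80* (2.57) also had a called difference. These 5 of 28 became 0 to 2 when any of the 8 libraries was left out and 18 with a pseudocount of 1 FPKM.

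DNA replication genes held 12 falls and 0 rises among 28 (median −0.82), beside 27.0% of all tested genes that fell. Without shHOXB13+shp300 replicate 2 there were 7 falls, a share below that of all genes. *TYMS*, thymidylate synthase, went from 3.74 and 4.69 FPKM to 0.928 and 0.489 FPKM (log2 −2.46), and *MCM6*, a subunit of the replicative helicase, from 8.90 and 7.87 FPKM to 3.33 and 2.77 FPKM (log2 −1.43). *CDKN1A*, the p21 inhibitor of cyclin-dependent kinases, went from 154 and 150 FPKM to 1044 and 750.5 FPKM (log2 2.54, SE 0.19, limma adjusted p = 2.24e-06). In the p53 response list, of which it is a member, 5 of 22 rose and 1 fell, and after median-of-ratios scaling 12 rose and 0 fell.

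In the ATF4 list of amino acid and stress genes 1 of 27 rose and 19 fell (median −1.22), with 0 called differences from the change without shp300. *SLC7A11*, the cystine transporter, went from 61.8 and 49.9 FPKM to 5.22 and 4.51 FPKM (log2 −3.49, SE 0.18, limma adjusted p = 1.15e-07). *ASNS*, asparagine synthetase, went from 106 and 129 FPKM to 26.1 and 23.4 FPKM (log2 −2.23), and *MTHFD2*, a mitochondrial folate enzyme, from 79.9 and 72.0 FPKM to 14.4 and 12.8 FPKM (log2 −2.47). In the unfolded protein response list 3 of 25 rose and 10 fell, and after median-of-ratios scaling 4 rose and 2 fell. Ribosome biogenesis genes fell in 14 of 24 cases with 0 rising (median −0.76), for example *FBL*, fibrillarin, from 85.7 and 91.0 FPKM to 39.9 and 32.0 FPKM. Of 28 oxidative phosphorylation genes 2 rose and 4 fell, both shares below those of all tested genes.

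NF-kB targets, several of which p300 and CBP coactivate, rose in 12 of 22 cases and fell in 2 (median 1.18). *NFKB2*, which encodes p100, went from 5.79 and 7.24 FPKM to 31.4 and 26.03 FPKM (log2 2.13, SE 0.15, limma adjusted p = 1.98e-06). *CCL2*, a monocyte chemokine, went from 0.124 and 0 FPKM to 2.95 and 3.26 FPKM (log2 4.42), and *CCL20* from 0.110 and 0.118 FPKM to 2.91 and 1.84 FPKM (log2 3.498). *BIRC3*, an inhibitor of apoptosis, went from 0.911 and 1.09 FPKM to 4.18 and 4.49 FPKM (log2 2.02). None of the 22 had a called difference from the change without shp300. In the list of lysine acetyltransferases, which holds *EP300* and *CREBBP*, 0 of 14 rose and 8 fell, 2 after median-of-ratios scaling. Of 7 HDAC3 corepressor genes 1 rose and 3 fell, and the 3 became 1 after median-of-ratios scaling. Of 25 HOX cluster genes 3 rose and 5 fell, shares near the 9.45% and 27.0% of all tested genes.

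**Figure D4:**
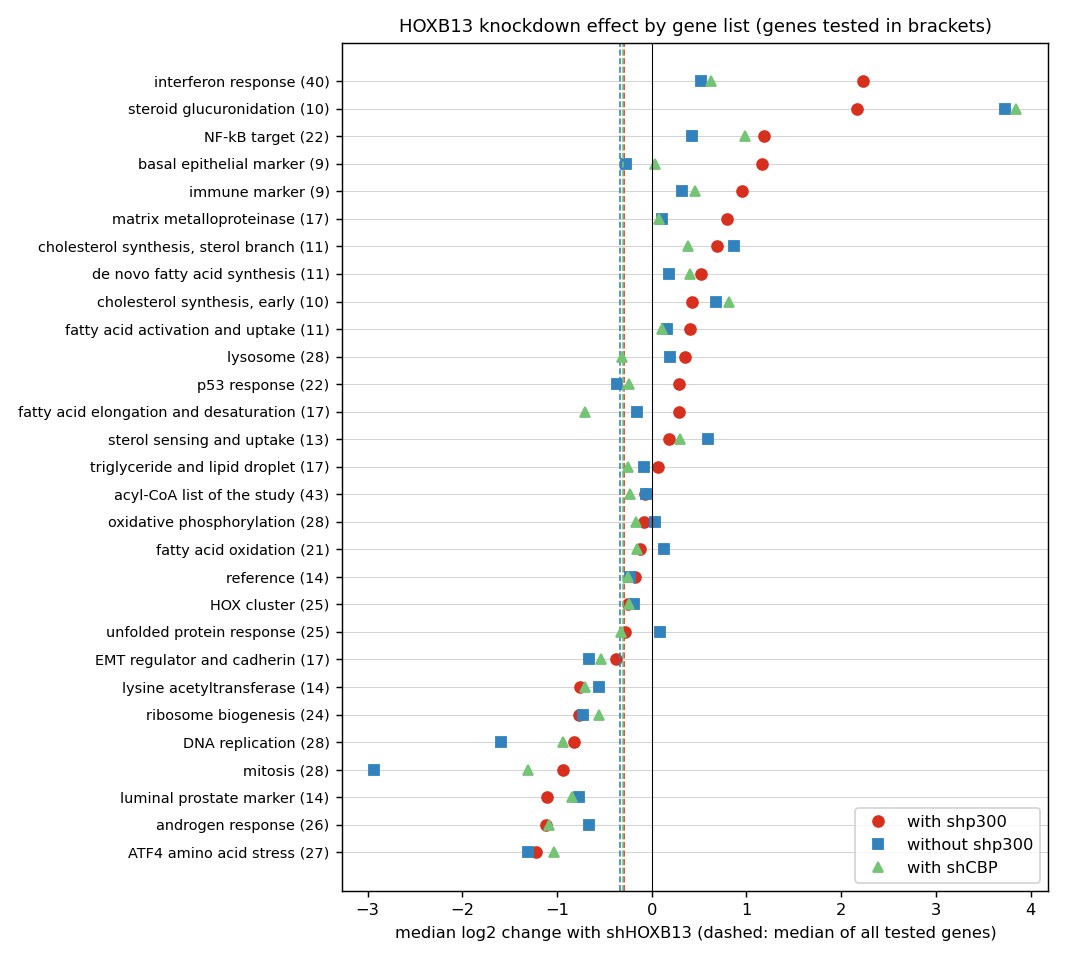
Median log2 fold change of each gene list of at least 9 tested genes on HOXB13 KD with shp300 (circles), without it (squares) and with shCBP (triangles), with dashed lines at the medians of all tested genes. The interferon response list lies at 2.23 with shp300 and 0.52 without, and the mitosis list at −0.94 and −2.93.

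The labelled cell type was checked against markers of the prostate and of other cells, whose part in the results was not tested. The summed luminal markers were 2241 to 2315 FPKM in shCtrl+shp300 and 1711 to 2247 FPKM in shHOXB13+shp300 cells, with 2 of 14 higher and 8 lower. The summed basal markers were 14.1 to 16.9 and 9.15 to 10.4 FPKM, with 5 of 9 tested higher and 2 lower. The basal genes *TP63* and *DSG3* were at 0 in all 4 libraries. The basal keratins *KRT5*, *KRT6A* and *KRT17* were at 0 in both shCtrl+shp300 libraries and were detected in the shHOXB13+shp300 group. *KRT14* fell from 1.42 and 2.78 FPKM to 0.225 and 0.405 FPKM, and *LAMB3* rose from 0.309 and 0.220 FPKM to 3.00 and 2.78 FPKM. *ITGA6*, also on the basal list, fell, by log2 changes of −3.34 to −2.96 with a library left out. Immune markers summed to 4.07 to 4.40 FPKM in control and to 23.4 FPKM in both KD libraries, most of it *CD68*, a lysosomal glycoprotein of macrophages and other cells, which went from 3.24 and 2.35 FPKM to 20.9 and 20.8 FPKM. The leukocyte gene *PTPRC* and the T cell gene *CD3E* were at 0 in all 4 libraries. Neuroendocrine markers summed to 13.4 to 14.2 and 12.03 to 15.07 FPKM, with 2 of 6 tested higher and 1 lower, and fibroblast markers to 57.8 to 60.5 and 16.3 to 20.4 FPKM, with 2 of 6 higher and 2 lower.

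Many genes changed in the same direction on HOXB13 KD with and without shp300. Of the 1671 genes that rose with shp300, 844 also rose without it (50.5% of the former and 66.8% of the 1264 that rose without), and 12 fell. Of the 4774 that fell, 3314 also fell without it (69.4%, and 69.9% of 4741), and 5 rose. For scale, 1264 of all 17678 tested genes rose without shp300 and 4741 fell. The median change of all tested genes was −0.30 with shp300 and −0.33 without. After median-of-ratios scaling 1672 of 2807 rises and 1402 of 2413 falls were shared. With shCBP, 742 of the rises (44.4%, and 61.4% of 1208) and 3199 of the falls (67.0%, and 71.0% of 4505) were shared. These comparisons have no library in common, but share the hairpin against HOXB13. In the DMSO-treated libraries, which were made as a separate series, 636 of 1472 rises (43.2%) and 2560 of 4717 falls (54.3%) among the 15751 genes tested in both were shared. By contrast 82 rises with shp300 were falls there and 51 falls were rises.

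**Figure D5:**
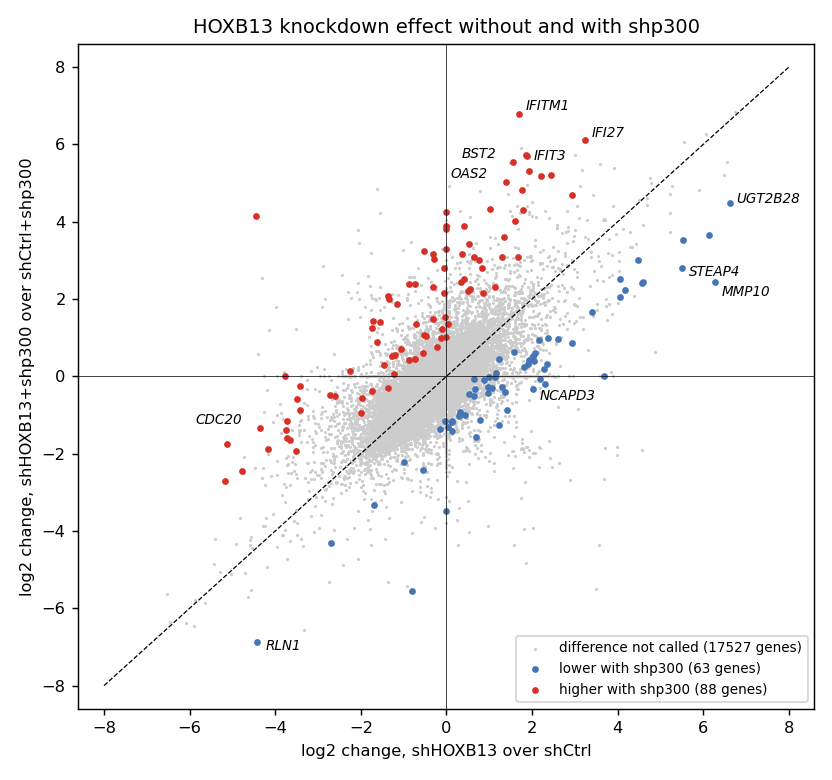
Log2 fold change of each tested gene on HOXB13 KD with shp300 (vertical axis) against the change without it (horizontal axis), with the 88 genes of higher and the 63 of lower change with shp300 coloured. Among the labelled genes, *IFITM1*, *IFI27*, *IFIT3*, *BST2* and *OAS2* lie above the line of equal change and *UGT2B28*, *MMP10* and *STEAP4* below it.

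Further genes had a different change with shp300 than without. *IGFBP6*, an insulin-like growth factor binding protein, was listed at 0 in both shCtrl+shp300 libraries and in the libraries without shp300, and was 1.52 and 1.26 FPKM (12 and 11 reads) in shHOXB13+shp300 cells (limma adjusted p of the difference = 0.00198). *PLSCR1*, a phospholipid scramblase that interferon induces, went from 0.042 and 0.045 FPKM to 0.997 and 1.40 FPKM with shp300 and was 0.229 and 0.233 FPKM against 0.108 and 0.238 FPKM without (difference 3.48, SE 0.64, limma adjusted p = 0.029). *KRT6C*, a stress keratin with close copies, went from 0.121 and 0 FPKM to 1.77 and 0.966 FPKM (difference 3.77). *SLC16A6*, a monocarboxylate transporter, fell from 3.56 and 2.53 FPKM to 2.07 and 1.23 FPKM with shp300 and rose from 1.70 and 1.56 FPKM to 3.84 and 5.31 FPKM without it (difference −2.28, SE 0.36, limma adjusted p = 0.0129), where the fall was not called in some fits with a library left out.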

How the data were processed

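RNA-seq was made from polyA RNA of LNCaP cells. Per the methods and the submitters' processing notes, the authors aligned reads to hg38 with STAR 2.6.0, counted them per gene and deposited FPKM values made with an in-house script, each gene's reads being divided by its length and by all mapped reads. Multiplying back gave whole reads (within 0.05) for 100% of 475360 values above 0, from which depth was taken. Of 26475 listed genes 32 have no value.

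Genes at 0.1 FPKM or more in at least 2 knockdown libraries (17678) were tested with limma 3.58.1 in R 4.3.3 on log2(FPKM + 0.1), with a mean-dependent prior, 1 fit of 8 groups (16 libraries) and Benjamini-Hochberg adjustment over all tested genes. The DMSO libraries were fitted separately (at least 3 libraries). Interactions are differences between fitted changes. SE is limma's. The fit was tested on simulated data. No sequencing date was used. Alternatives were other pseudocounts, filters, scalings, priors, sample sets, a replicate block, voom on recovered reads, and each library left out.

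Named genes are those the paper names, the 10 largest rises and 10 largest falls with separate libraries and a group mean of at least 1 FPKM, at most 4 called members of each list taken by p, and the 8 largest interactions in each direction. LOC, microRNA and snoRNA entries were skipped, and certain other genes are not reported here. *UGT2B17*, *PLK1*, *CDC20*, *NDC80*, *OASL*, *ISG15*, *IFIH1*, *DDX58*, *STAT2*, *IRF9*, *IRF7*, *MX1*, *USP18*, *IFNL2*, *IFNL3*, *IFNB1*, *HLA-B*, *HLA-C*, *HLA-E*, *NLRC5*, *CXCL10* and *FKBP5* fall outside this rule and were chosen after their values were seen. The comparison, members and gene lists were chosen with earlier results of these data known. Gene positions are from GENCODE 44 (GRCh38), promoter sequences from RefSeq (GRCh38.p14).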

Additional observations from a re-analysis of the deposited data

Results flagged for a closer look

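The change on HOXB13 KD differed between cells with and without shp300, by a test of the difference (limma, adjusted over all genes), for 88 genes in the higher and 63 in the lower direction, and between cells with shp300 and with shCBP for 201 and 87. Each value below is the log2 change on HOXB13 KD with shp300 minus that without.

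Interferon and neighbouring genes had a higher change with shp300: *IFITM1* 5.10, *BST2* 3.98, *IFNL1* 3.87, *IFIT3* 3.80, *OAS2* 3.64, *PLSCR1* 3.48, *IFI27* 2.87, *OASL* 2.76, *OAS1* 2.27, *DDX58* 2.11, *ISG15* 1.79, *IFIH1* 1.71 and *HLA-E* 1.31. Outside that group, *IGFBP6* (3.89) and *KRT6C* (3.77) were also higher. *IFNL1* and *IGFBP6* were at 0 reads in the control group, so their values depend on the pseudocount.

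Of 28 mitotic genes, 5 had a called difference, all in the higher direction, of 3.03 for *CDC20*, 2.57 for *NDC80*, 2.37 for *BUB1B*, 2.23 for *PLK1* and 2.02 for *KIF2C*. These 5 became 0 to 2 when any of the 8 libraries was left out, and the change of *PLK1* with shp300 was itself not called. The control level of the 5 was lower with shp300 than without.

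Differences in the lower direction were −4.76 for *RNVU1-15*, −3.84 for *MMP10*, −2.70 for *STEAP4*, −2.50 for *HPGD*, −2.49 for *UGT2B10*, −2.44 for *RLN1*, −2.33 for *NCAPD3*, −2.28 for *SLC16A6*, −2.14 for *UGT2B28*, −2.00 for *UGT2B15*, −1.92 for *FKBP5*, −1.73 for *UGT2B17*, −1.40 for *ACSL3* and −1.22 for *ELOVL5*. *RNVU1-15* was at 0 in both shHOXB13+shp300 libraries.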

How the results depend on the processing

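Of the 132 named genes' changes with shp300, 1278 of their values under other settings kept direction and side of the threshold, 29 lost a call, and 5 turned direction. For the 34 named genes with a called difference from the change without shp300, 294 values under other settings kept the call and 45 lost it. These tallies leave out the fits with a single library removed, in which the called differences were lost more often. Counts of rises and falls were 2807 and 2413 after median-of-ratios scaling. Genes with a higher and a lower change with shp300 than without numbered 151 and 136 under that scaling, 209 and 116 with a pseudocount of 1 FPKM, and 138 and 125 with voom on recovered reads, and 160 higher after scaling to equal summed FPKM. Against shCBP the counts were 366 and 179 after median-of-ratios scaling, 481 and 141 after scaling to summed FPKM, and 12 and 5 with only the compared groups in the fit, which have fewer samples, and 126 were higher without a trend in the prior. Shared rises and falls without shp300 were 1672 and 1402 after median-of-ratios scaling, where those shared with the DMSO libraries were 1290 and 1090, and shared falls were 2063 after scaling to summed FPKM and 2202 with only the compared groups. Where no reason is given, the cause was not tested. Directions turned for *VIM* (0.2334 after median-of-ratios scaling, 0.077 with summed FPKM, −0.3812 to 0.1067 with a library left out), *HPGD* (0.1747 and 0.0215 under the same scalings), *NCAPD3* (0.0577 after median-of-ratios scaling) and *MMP7* (−0.0626 to 2.0608 with a library left out), none of which was called. With single libraries left out, which leaves 1 sample in a group that is assumed to vary like the others, rises ranged from 1243 to 1525 and falls from 3499 to 4580. Genes with a higher change with shp300 than without ranged from 22 to 48 and with a lower one from 9 to 59, and against shCBP from 34 to 297 and from 16 to 68. Shared rises ranged from 651 to 800 and shared falls from 2372 to 3161 without shp300, and from 502 to 645 and 2014 to 2592 with the DMSO libraries. The replicate numbers did not pair the samples (correlation of deviations 0.0285 between the 2 groups compared, −0.0581 to 0.1175 over all pairs), and with a replicate block 1640 genes rose and 4727 fell, 70 and 44 differed from the change without shp300, and 124 and 55 from that with shCBP. With 2 libraries per group and 8165560 to 10801468 reads, genes of a few reads, such as *IFNB1*, are measured with large error.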
